A study of Mus musculus with 79 samples.

Results

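T (Brachyury) is a T-box factor of the primitive streak, and Sox2 is a SoxB1 factor of the epiblast and neural plate. The mouse embryo holds, at its caudal end, progenitors that carry both T and Sox2. Of 53 such cells profiled singly, 15 carried Msgn1 messenger RNA at 1 FPKM or more and are called Msgn1+ here, and the other 38 lay below 1 FPKM and are called Msgn1-. FPKM is the number of fragments per kilobase of transcript and per M fragments mapped, and each deposited value belongs to 1 gene symbol in 1 cell. The members were chosen by their measured Msgn1 FPKM, so the Msgn1 level itself is a description and not a result.

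The 53 cells are part of a series of 79 samples on the parts that T, Sox2 and Tbx6 play as such progenitors turn neural or mesodermal. All 53 were wild type (WT), of strain C57BL/6N and Theiler stage 13 (TS13), sorted as T+ Sox2+ cells from pooled embryos and captured on a Fluidigm C1 chip, where 55 capture sites were judged by eye to hold a cell. The embryos were grown from embryonic stem (ES) cells in tetraploid host blastocysts (tetraploid complementation), so that ES cells form the embryo proper. Bulk RNA libraries, with 1 library a group, serve as a second measurement: T+ and Sox2+ fractions of WT C57BL/6N embryos at TS12, T+ cells of T knockout (T KO, genotype T2J/2J, labelled C57BL/6J) and WT embryos at TS13, and Tbx6+ cells titled Tbx6 KO and WT at TS14. For the Tbx6+ pair the genotype in the source names is the opposite of that in the titles, and titles are used. No label ties a cell to an embryo, so the cells are not replicates, each class counts as 1 sample, and no p-value is given for any difference between the classes.

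Msgn1 (mesogenin 1) is a basic helix-loop-helix transcription factor of the presomitic mesoderm, the unsegmented tissue from which somites form. Mouse embryos without it fail to make posterior paraxial mesoderm. Its transcription there is known to depend on Wnt signalling, acting through Lef/Tcf factors, together with Tbx6, and it acts alongside the Notch genes of the segmentation clock. Neuro-mesodermal progenitors are thought to pass through a state of rising Tbx6 and Msgn1 as they enter mesoderm.

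The sequences around the transcription starts of Msgn1, the gene that divides the cells, and of T, which every cell carried, are shown because Lef/Tcf factors are known regulators of both genes and T-box factors of Msgn1. Each runs from 250 bases before to 50 bases after the start in the RefSeq annotation of GRCm38.p6, which is build mm10. Capitals mark the 6-letter core of Lef/Tcf sites, CTTTGA, and the E-box CANNTG, on either strand. The Msgn1 window lies at chr12:11208899-11209198 on the minus strand and the T window at chr17:8434173-8434472 on the plus strand.
Msgn1: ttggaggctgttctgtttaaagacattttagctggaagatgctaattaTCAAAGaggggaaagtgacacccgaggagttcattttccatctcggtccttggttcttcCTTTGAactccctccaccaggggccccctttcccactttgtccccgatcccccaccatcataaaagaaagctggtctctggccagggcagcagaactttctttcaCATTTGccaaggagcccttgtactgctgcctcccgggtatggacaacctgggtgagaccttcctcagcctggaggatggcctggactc
T: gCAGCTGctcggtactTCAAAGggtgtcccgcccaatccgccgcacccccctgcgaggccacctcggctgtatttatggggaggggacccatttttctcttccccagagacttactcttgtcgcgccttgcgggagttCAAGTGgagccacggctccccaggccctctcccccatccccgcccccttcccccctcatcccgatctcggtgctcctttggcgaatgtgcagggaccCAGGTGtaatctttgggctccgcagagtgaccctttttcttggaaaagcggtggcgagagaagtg
The Msgn1 window held 2 CTTTGA matches and 1 E-box, and the T window held 1 CTTTGA match and 3 E-boxes. Neither held the T-box core GGTGTG in that spelling. Of 32851 RefSeq promoter windows of the same length, 16% had CTTTGA at least once, 1.73% had it 2 or more times, 72.3% had an E-box and 19% had GGTGTG. These matches describe the letters only, and no binding was measured here.

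Msgn1 was listed at 0 FPKM in 37 cells and at 0.893 FPKM in 1 more. The Msgn1+ cells made up 28.3% of the 53 (exact Clopper-Pearson 95% interval 16.8% to 42.3%, which covers counting of cells only). Among the 15, the Msgn1 level was uneven. In 8 cells it lay between 1.00 and 6.18 FPKM, and in the other 7 it was 15.9, 44.6, 54.7, 78.9, 81.9, 116.5 and 202 FPKM. Those 7 cells held 96.5% of all Msgn1 signal summed over the 53 cells. The nearest values at the boundary were 0.893 FPKM outside it and 1.00 and 1.02 FPKM inside it.

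The FPKM values themselves show how many fragments stand behind these levels. Where whole fragments are counted, low genes of 2 cells stand in ratios of small whole numbers, and the commonest ratio gives the relative depth of the cells. One set of depths accounted for 1351 of 1378 cell pairs (98.0%) to within 0.001. On that scale all 16 Msgn1 values above 0 were whole multiples of 1 step, the largest deviation being 0.000189 of a step, and the step was taken as 1 fragment. The Msgn1+ cells then had 1 fragment in 4 cells, 2 to 5 in 4 cells, and 12 to 116 in 7 cells. The boundary at 1 FPKM therefore runs between 5 cells that each had 1 Msgn1 fragment, 4 of them counted as Msgn1+ and 1 as Msgn1-. A single fragment was worth 0.725 to 4.2 FPKM depending on the cell. In the 37 cells at 0, a count of 0 allows up to 3 fragments, that is 2.18 to 12.6 FPKM with a median of 3.79, so Msgn1 at 1 to 3 fragments, as in the lowest Msgn1+ cells, was not detectable with certainty in them. Amplified reads are not independent molecules, so this limit covers counting error only.

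**Figure D1:**
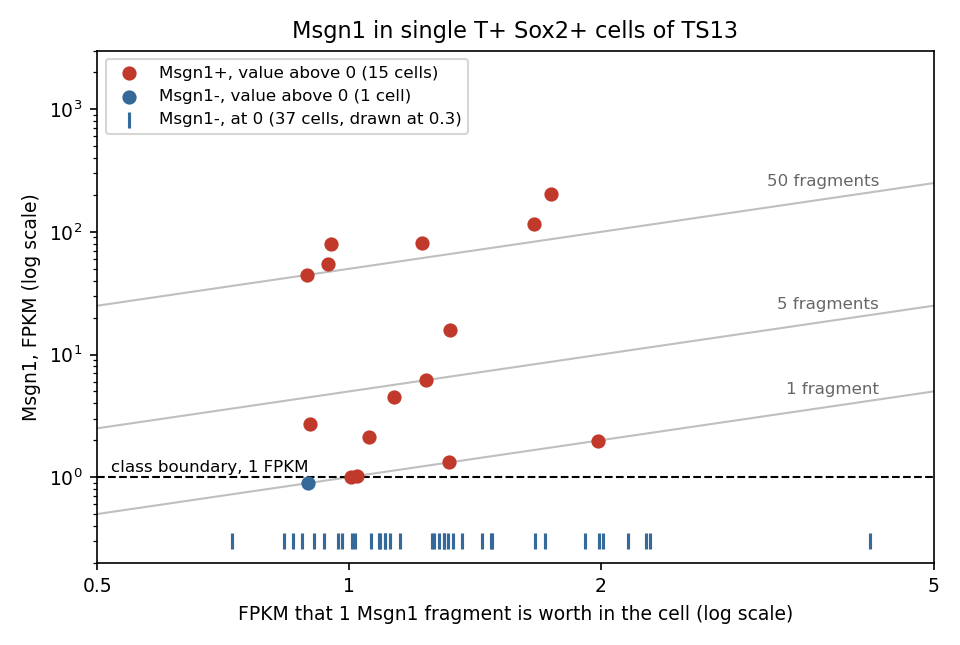
Msgn1 level in FPKM (vertical, log scale) against the FPKM that 1 Msgn1 fragment is worth in the same cell (horizontal, log scale), 1 point per cell. Grey lines mark 1, 5 and 50 fragments and the dashed line marks the 1 FPKM boundary. The 37 cells at 0 are drawn as ticks at the bottom, and 4 Msgn1+ cells and 1 Msgn1- cell lie on the line of 1 fragment.

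The classes covered similar ranges of depth and of genes detected. Relative depth ran from 0.615 to 1.37 (median 1.08) in Msgn1+ cells and from 0.291 to 1.68 (median 0.969) in Msgn1- cells. Genes at 1 FPKM or more numbered 4185 to 8021 (mean 6270 ± 1066, SD, n = 15 cells) in Msgn1+ cells and 4075 to 9001 (mean 6015 ± 998, SD, n = 38 cells) in Msgn1- cells. Every difference between the classes given here is of mean log2(FPKM + 1), Msgn1+ minus Msgn1-, adjusted for this number in a linear fit over the 53 cells, and on that scale the difference of a low gene is understated. The 6 cells from capture sites numbered 90 and above had fewer genes, 4075 to 5476, and 1 of them was Msgn1+.

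The genes on which the cells were sorted, and Tbx6, had overlapping ranges in the 2 classes. T was above 1 FPKM in all 53 cells, at 43.5 to 606 FPKM (median 241) in Msgn1+ cells and 35.7 to 888 FPKM (median 343) in Msgn1- cells. Sox2 lay between 0 and 77.4 FPKM (median 30.9) in Msgn1+ cells and between 0 and 73.9 FPKM (median 14.4) in Msgn1- cells. Sox2 was at 1 FPKM or more, called detected from here on, in 13 of 15 Msgn1+ and 33 of 38 Msgn1- cells. The few other sorted cells lay below 1 FPKM of Sox2, some but not all of them at 0. The 2 Msgn1+ cells with Sox2 at 0 were those with 81.9 and 202 FPKM of Msgn1. The adjusted differences were -0.49 for T and 0.53 for Sox2. Each was smaller than the SD over cells within either class (0.99 and 1.07 for T, 1.88 and 1.75 for Sox2). In the 7 cells with 12 or more Msgn1 fragments Sox2 was detected in 5. Against the Msgn1- cells, the differences of those 7 were -0.15 for T and -0.36 for Sox2, so the sign of Sox2 turned.

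Tbx6, the T-box factor that directs paraxial mesoderm and lies upstream of Msgn1, was at 0 to 129 FPKM (median 17.2) in Msgn1+ cells and at 0 to 181 FPKM (median 27.6) in Msgn1- cells. It was detected in 14 of 15 Msgn1+ cells (93.3%, exact interval 68.1% to 99.8%) and 32 of 38 Msgn1- cells (84.2%, exact interval 68.7% to 94%). The Msgn1- cells below 1 FPKM of Tbx6 were those of capture sites 4, 90, 92, 93, 94 and 95. All but site 4 belong to the capture sites 90 and above, where fewer genes were detected, so the lower Msgn1- share rests mostly on those sites. The adjusted difference of Tbx6 was -0.08, with SDs over cells of 1.72 in Msgn1+ and 2.17 in Msgn1- cells, so the means of the classes differed by far less than the cells within each. T, Sox2 and Tbx6 were detected together in 12 of 15 Msgn1+ cells (80.0%) and 29 of 38 Msgn1- cells (76.3%). Most cells of both classes therefore had the RNA of both sort genes and of the mesodermal factor at once. The Msgn1+ cell with Tbx6 at 0 had 1.32 FPKM of Msgn1.

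Other presomitic genes were found in cells without Msgn1 about as often as in cells with it. Dll1, a Notch ligand of the presomitic mesoderm, was detected in all 53 cells, at 8.46 to 134 FPKM (median 31.1) in Msgn1+ cells and 1.75 to 327 FPKM (median 45.0) in Msgn1- cells. Rspo3, a secreted enhancer of Wnt signalling, was also detected in all 53, at 77.1 to 581 FPKM (median 180) in Msgn1+ and 25.2 to 535 FPKM (median 233) in Msgn1- cells. The Notch ligand Dll3 was detected in 15 of 15 Msgn1+ and 36 of 38 Msgn1- cells, and the clock repressor Hes7 in 13 of 15 and 36 of 38. Cited1, a transcriptional coactivator and the most abundant member, was at 503 to 1493 FPKM (median 851) in Msgn1+ and 106 to 1494 FPKM (median 735) in Msgn1- cells. For each of these genes the ranges of the classes overlapped. The adjusted differences were -0.32 for Dll1, -0.33 for Rspo3, -0.34 for Dll3, -0.25 for Hes7 and 0.38 for Cited1.

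**Figure D2:**
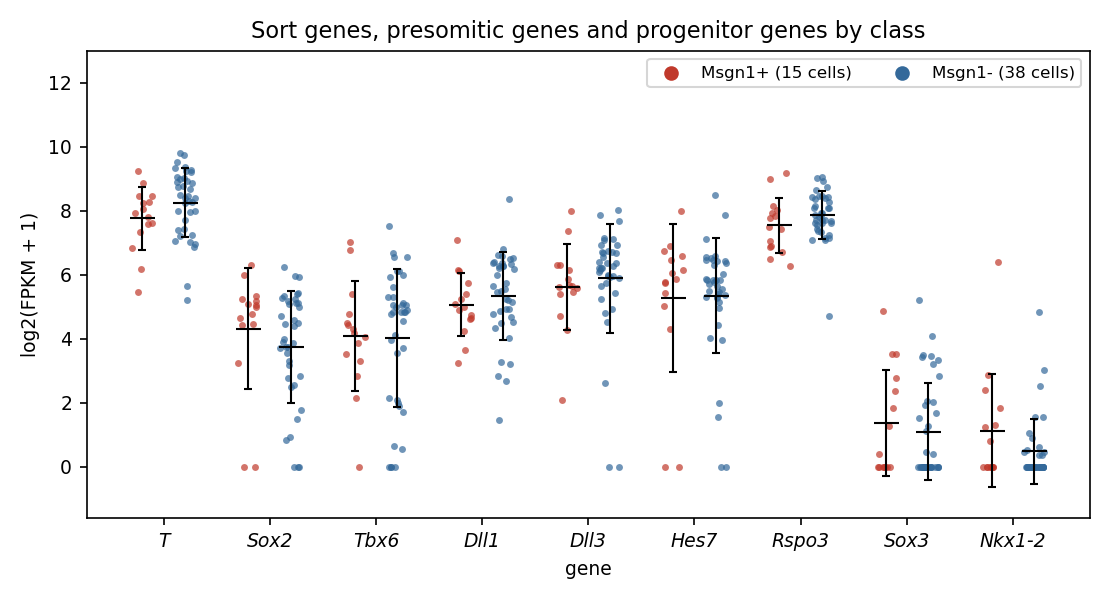
Levels of 9 genes as log2(FPKM + 1), 1 point per cell, with 15 Msgn1+ cells in red on the left and 38 Msgn1- cells in blue on the right of each pair. Horizontal bars are means and error bars are SDs over cells. In all 9 genes the clouds of the 2 classes overlap.

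Of 9061 genes at 1 FPKM or more in at least 10 cells, 4.7% were higher in Msgn1+ cells by a difference of at least 1 (log2) and 4.52% were lower by as much, with a median over all genes of -0.01. The list for presomitic and paraxial mesoderm has 24 genes, of which 15 passed this filter, and 0 of the 15 reached 1 in either direction. Their median was -0.25, between -0.70 for Pcdh19, a protocadherin of the presomitic mesoderm, and 0.64 for Tcf15, a factor of the forming somite. The members that mark later steps were rare in both classes. Mesp2, which sets the somite boundary, reached 1 FPKM in 0 of 15 Msgn1+ cells and 0 of 38 Msgn1- cells, so shares of up to 21.8% and 9.25% remain possible (exact 95% intervals). Meox1, a somite factor, was detected in 2 of 15 Msgn1+ and 2 of 38 Msgn1- cells, and Tcf15 in 4 of 15 and 6 of 38. The other members left out by the filter were Foxc2, Ripply2, Pcdh8, Meox2, Ripply1, Tbx18 and Uncx, and the last 5 of these were listed at 0 in every cell.

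The cells with the most Msgn1 were also read on their own. In the 7 cells with 12 or more fragments, Tbx6, Dll1, Dll3, Hes7 and Rspo3 were each detected in 7 of 7. Against the Msgn1- cells their adjusted differences were -0.16 for Tbx6, 0.14 for Dll1, 0.23 for Dll3, 0.68 for Hes7 and -0.17 for Rspo3. Beyond 1 in size lay Pdgfra, a growth factor receptor of early mesoderm, at -1.52, while Tcf15 was at 1.00. The mean of the 24 genes per cell, on log2(FPKM + 1), was 2.44 ± 0.59 (SD, n = 7 cells) in these cells, 2.38 ± 0.45 (SD, n = 15 cells) in all Msgn1+ cells and 2.35 ± 0.36 (SD, n = 38 cells) in Msgn1- cells. The 7 cells included the lowest mean of the Msgn1+ class, 1.63, and its highest, 3.02, and the lowest belonged to the cell with the most Msgn1.

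**Figure D3:**
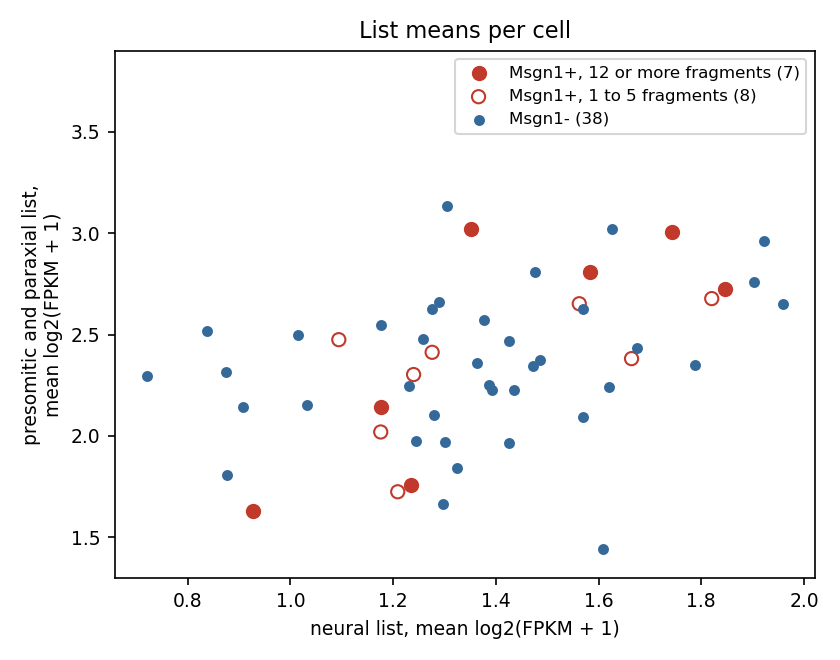
Mean log2(FPKM + 1) of the 24 presomitic and paraxial genes (vertical) against that of the 27 neural genes (horizontal), 1 point per cell. Filled red points are the 7 Msgn1+ cells with 12 or more fragments, open red points the 8 with 1 to 5, and blue points the 38 Msgn1- cells. The Msgn1+ cells span the range of 1.63 to 3.02 on the vertical axis and lie among the Msgn1- cells, which span 1.44 to 3.14.

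Genes of the progenitor state showed no common direction. The axial progenitor list, of genes known from the caudal epiblast and progenitors, had 21 of 22 members compared, with a median of -0.05, 1 member higher by at least 1 and 1 lower by at least 1. Fgf3, a fibroblast growth factor, was higher, at 0 to 109 FPKM (median 16) in Msgn1+ cells and 0 to 71.9 FPKM (median 1.53) in Msgn1- cells, a difference of 1.28 with SDs of 2.45 and 2.15, and of 0.54 for the 7 cells with 12 or more fragments alone. Fst (follistatin), an activin inhibitor, was lower, at 0 to 129 FPKM (median 1.34) in Msgn1+ and 0 to 112 FPKM (median 10.8) in Msgn1- cells. The difference of Fst was -1.15 with SDs of 2.26 and 2.31, and -0.52 for those 7 cells. In both genes the ranges of the classes overlapped. Wnt3a, the Wnt ligand of the tail bud, was at 1.48 to 142 FPKM (median 27.8) in Msgn1+ and 0 to 129 FPKM (median 26.4) in Msgn1- cells, a difference of 0.17. Fgf8, the main tail bud fibroblast growth factor, differed by -0.29 and the retinoic acid degrading enzyme Cyp26a1 by -0.41.

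Nkx1-2, a homeobox factor of the caudal epiblast, was detected in 6 of 15 Msgn1+ cells (40%, exact interval 16.3% to 67.7%) and 6 of 38 Msgn1- cells (15.8%, exact interval 6.02% to 31.3%). Its level was 0 to 84.1 FPKM (median 0) in Msgn1+ and 0 to 27.4 FPKM (median 0) in Msgn1- cells, and the difference of 0.55 lay between 0.19 and 0.69 when any 1 cell was left out. Sox3, the SoxB1 factor of progenitors and neural cells, was detected in 7 of 15 Msgn1+ and 15 of 38 Msgn1- cells, with a difference of 0.22 that lay between -0.02 and 0.32 when 1 cell was left out.

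The neural genes compared were not lower as a group in the cells with Msgn1. Of 27 listed genes 15 were compared, their median was 0.02, and 1 lay beyond 1 in each direction. Gbx2, a homeobox factor of caudal and neural ectoderm, was higher, at 0 to 275 FPKM (median 91.9) in Msgn1+ and 0 to 179 FPKM (median 26.4) in Msgn1- cells, a difference of 1.18 with SDs of 2.86 and 2.92. For the 7 cells with 12 or more fragments the difference of Gbx2 was 0.27. Pax6, a paired-box factor of the neural tube, was lower, at 0 to 1.59 FPKM (median 0) in Msgn1+ and 0 to 88.9 FPKM (median 0) in Msgn1- cells. The difference of Pax6 was -1.05, and -1.23 for those 7 cells. Pax6 was detected in 2 of 15 Msgn1+ and 9 of 38 Msgn1- cells, so the difference rests on a minority of cells of the larger class. Of the 15 compared genes 9 were above 0, such as Foxb1 at 0.89, and 6 below. Those below included Nes at -0.93 and Irx3 at -0.44, Irx3 being detected in 1 of 15 and 9 of 38 cells. Of the members below the filter, Sox1, an early marker of neural commitment, was detected in 3 of 15 Msgn1+ and 2 of 38 Msgn1- cells. Nkx6-1 was detected in 1 and 0, and Nkx2-9 in 1 and 2. Less common in Msgn1+ cells were Fabp7 (1 and 6), Lrp2 (1 and 7), Irx5 (1 and 5) and Neurog2 (0 and 6).

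Few Notch, FGF or Wnt pathway genes lay past 1. Among 15 Notch and segmentation clock genes compared (18 listed, median -0.18), 1 was higher and 0 were lower. That was Hey1, a Notch-responsive repressor, at 0 to 50.3 FPKM (median 6.36) in Msgn1+ and 0 to 97.3 FPKM (median 0.311) in Msgn1- cells, with a difference of 1.09 and SDs of 2.24 and 2.19, and of 0.44 for the 7 cells with 12 or more fragments alone. Among 11 FGF targets and feedback genes compared (16 listed, median 0.30), 2 were higher and 0 lower. Both were phosphatases that dampen ERK signalling: Dusp6, at 24.8 to 269.5 FPKM (median 65.9) in Msgn1+ and 0 to 205 FPKM (median 53.6) in Msgn1- cells, a difference of 1.01, and Dusp4, detected in 14 of 15 and 29 of 38 cells, a difference of 1.05. For the 7 cells with 12 or more fragments the differences were 0.89 for Dusp6 and 1.74 for Dusp4. Etv4, an ETS factor induced by FGF, stood on the other side at -0.68, and at -1.10 for those 7 cells. Among 17 Wnt targets and feedback genes compared (19 listed, median 0.12), 0 passed 1 in either direction, the highest being Tcf7 at 0.66, Axin2 at 0.64 and Notum at 0.62, and the lowest the Wnt antagonist Sfrp2 at -0.91.

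**Figure D4:**
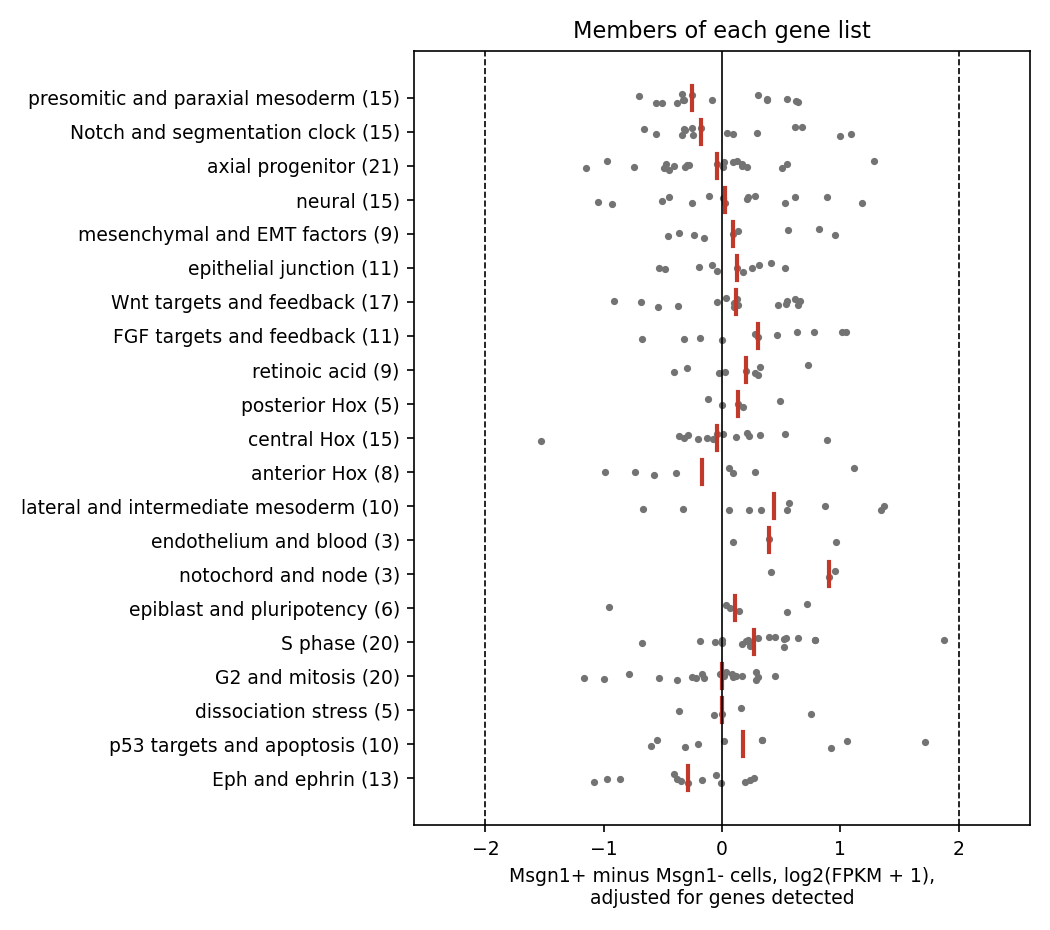
Adjusted difference of log2(FPKM + 1), Msgn1+ minus Msgn1- cells (horizontal), for every compared member of the 21 lists with 3 or more such members. Grey points are genes, red bars are list medians, numbers in brackets count the members, and dashed lines mark a difference of 2. No listed gene lies beyond the dashed lines, and the medians of lists with 5 or more members lie between -0.28 and 0.44.

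Hox genes, which record axial position, were alike in their medians. These were 0.14 for 5 posterior, -0.04 for 15 central and -0.17 for 8 anterior genes. Hoxa6 was the furthest out, detected in 5 of 15 Msgn1+ and 26 of 38 Msgn1- cells, with a difference of -1.53. Hoxa2 was at 1.12, detected in 6 of 15 and 8 of 38 cells. For the 7 cells with 12 or more fragments Hoxa6 was at -0.79 and Hoxa2 at 2.06. Among 20 S phase genes the median was 0.27 and 16 were above 0, where 4474 of the 9061 genes compared were above 0 and 4587 below. Of the 20, Cdc45, a subunit of the replicative helicase, was the only one past 1. Cdc45 was at 0 to 137 FPKM (median 30.6) in Msgn1+ and 0 to 246 FPKM (median 0.941) in Msgn1- cells. The difference of Cdc45 was 1.88, and 2.19 for those 7 cells. Among 20 G2 and mitosis genes the median was 0.00, with the checkpoint kinase Bub1 lowest at -1.17, and at -1.33 for those 7 cells.

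Mesenchymal and epithelial genes had medians close to 0. Of 9 mesenchymal factors compared (13 listed, median 0.09) and 11 epithelial junction genes compared (16 listed, median 0.13), 0 passed 1. Snai1, a repressor of E-cadherin, was at 0 to 87.4 FPKM (median 24.4) in Msgn1+ and 0 to 127 FPKM (median 9.90) in Msgn1- cells, a difference of 0.82, and it was detected in 13 of 15 and 24 of 38 cells. The matrix protease Mmp2 differed by 0.95, detected in 11 of 15 and 16 of 38 cells. Cdh1, which encodes E-cadherin, was detected in 6 of 15 Msgn1+ and 12 of 38 Msgn1- cells, with a difference of 0.25. Eph receptors and ephrins, which set up cell repulsion at tissue boundaries, had a median of -0.28 over 13 genes, with 10 of them below 0, against 4587 of all 9061 genes. Only Ephb3 lay past -1, at -1.08, and at -0.31 for the 7 cells with 12 or more fragments. In those 7 cells Efna5 was at -1.51 (-0.86 for the whole class), Epha5 at -1.26 (-0.97) and Efna1 at 0.40 (-0.40).

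Markers of other tissues differed in how common they were. Some lateral mesoderm genes were common in both classes. The forkhead factor Foxf1 was detected in 13 of 15 Msgn1+ and 33 of 38 Msgn1- cells. The basic helix-loop-helix factor Hand1 was detected in 12 of 15 and 24 of 38, and the ligand Bmp4 in 11 of 15 and 23 of 38. Less common were Prrx1 (5 of 15 and 6 of 38) and Gata6 (3 of 15 and 6 of 38). Bmp2 (0 of 15 and 3 of 38), Gata4 (0 of 15 and 1 of 38) and Lhx1 (1 of 15 and 0 of 38) were rare. Nkx2-5 and Pax8 were detected in no cell. In the lateral and intermediate mesoderm list, 10 of 16 genes were compared, their median was 0.44, and 2 were higher by at least 1. Of the 10, 8 were above 0 and 2 below. Those below were Pax2 at -0.67, detected in 0 of 15 and 10 of 38 cells, and Isl1 at -0.33, detected in 6 of 15 and 17 of 38. Osr1, a factor of intermediate and lateral mesoderm, was at 0 to 181 FPKM (median 20.8) in Msgn1+ and 0 to 74.1 FPKM (median 5.27) in Msgn1- cells, a difference of 1.34, but of 0.007 for the 7 cells with 12 or more fragments. Tbx4, a T-box factor of hindlimb and allantois, was detected in 9 of 15 and 10 of 38 cells. The difference of Tbx4 was 1.37, and 1.61 for those 7 cells. The FPKM summed over the list ran from 0 to 305 (median 171) in Msgn1+ and from 2.83 to 629 (median 136) in Msgn1- cells. Of the endothelium and blood list 3 of 16 genes were compared. The receptor Kdr was detected in 6 of 15 Msgn1+ and 6 of 38 Msgn1- cells. The haematopoietic factor Lmo2 was detected in 13 of 15 and 27 of 38, and the ETS factor Etv2 in 5 of 15 and 8 of 38. Cdh5, Emcn and Tal1 were each detected in 0 of 15 and 1 of 38 cells, Pecam1 in 0 of 15 and 2 of 38, and Alas2 in 0 of 15 and 5 of 38. Tek, Tie1 and the embryonic globins Hba-x, Hbb-bh1 and Hbb-y reached 1 FPKM in no cell. Of the neural crest list, Sox10 and Foxd3 reached it in no cell either, but Sox9 was detected in 3 of 15 Msgn1+ and 13 of 38 Msgn1- cells, Tfap2a in 0 of 15 and 8 of 38, and Ets1 in 0 of 15 and 7 of 38. The endoderm list had at most 1 of its 10 genes detected in any cell. Of the notochord and node list 3 of 9 genes were compared, with a median of 0.90 that turned to -0.22 with Msgn1+ counted from 5 FPKM on, and the node factor Noto was detected in 0 of 15 and 1 of 38 cells. Of the surface ectoderm list 2 of 9 genes were compared. Grhl3 had a difference of 1.28, and of 0.68 for the 7 cells with 12 or more fragments. Wnt6 was at -0.18, and at 0.35 for those 7 cells. Grhl3 was detected in 9 of 15 and 9 of 38 cells, Wnt6 in 2 of 15 and 8 of 38, and Krt5 in none. The part of such cells in the differences was not tested.

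The remaining lists gave medians near that of all genes. They were 0.20 for 9 retinoic acid genes, 0.11 for 6 epiblast and pluripotency genes and 0.00 for 5 genes of the stress of dissociation, with no member past 1. Crabp2, a carrier of retinoic acid, was abundant in both classes, at 0 to 762 FPKM (median 286) in Msgn1+ and 0 to 842 FPKM (median 228) in Msgn1- cells. The DNA methyltransferase Dnmt3b was at 20.1 to 71.4 FPKM (median 46.2) in Msgn1+ and 0.245 to 178 FPKM (median 34.4) in Msgn1- cells. The difference of Dnmt3b was 0.72. Of the 6 epiblast and pluripotency genes 5 were above 0 and 1 below. The 1 below was Dppa3, the furthest out, at -0.95, detected in 1 Msgn1+ and 10 Msgn1- cells. Of the members below the filter, Pou5f1 was detected in 0 and 9, and Utf1 in 0 and 4. Esrrb was detected in 1 and 3, and Fgf5 in 0 and 1, the Msgn1- class being the larger.

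Over all 9061 genes, few had a large difference. A difference of at least 2 (log2) was reached by 8 genes that were higher in Msgn1+ cells (0.0883% of those compared) and 6 that were lower (0.0662%), 0.155% in either direction, and no gene reached 3. None of the 14 belongs to the lists above. The higher genes included Med10, Hiatl1, Rgs19, Tm2d2, Ttc23, Mrpl16 and Vac14, and these 7 were detected in 10 to 15 of the 15 Msgn1+ cells and 12 to 28 of the 38 Msgn1- cells. Tm2d2 was at -0.095 when Msgn1+ was counted from 5 FPKM on. The 6 lower were Bloc1s1, Cdk2ap2, Mrpl1, Nme3, Ccnf and Rpf1, detected in 4 to 12 of 15 and 23 to 36 of 38 cells.

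Med10, a subunit of the Mediator complex, had the highest difference, 2.21, with 13.9 to 564 FPKM (median 143) in Msgn1+ and 0 to 332 FPKM (median 62.7) in Msgn1- cells. Leaving out 1 cell at a time kept it between 1.86 and 2.41. Rgs19, a regulator of G protein signalling, was at 0 to 241 FPKM (median 33.3) in Msgn1+ and 0 to 128 FPKM (median 0) in Msgn1- cells. Vac14, a scaffold of the enzyme complex that makes a phosphoinositide of endosomes, was at 0.495 to 106 FPKM (median 17.2) in Msgn1+ and 0 to 106 FPKM (median 0) in Msgn1- cells. In all 3 genes the highest Msgn1- cell lay above the median of the Msgn1+ cells. Med10 was detected in 15 of 15 Msgn1+ and 28 of 38 Msgn1- cells, Rgs19 in 10 of 15 and 12 of 38, and Vac14 in 13 of 15 and 15 of 38.

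Bloc1s1, a subunit of a complex of lysosome-related organelles, had the lowest difference, -2.32, with 0 to 275 FPKM (median 0) in Msgn1+ and 0 to 369 FPKM (median 80.3) in Msgn1- cells. Ccnf, the cyclin of a ubiquitin ligase, was at 0 to 70.0 FPKM (median 11.3) in Msgn1+ and 0 to 140 FPKM (median 35.1) in Msgn1- cells. Rpf1, a ribosome assembly factor, was at 0 to 207 FPKM (median 21.1) in Msgn1+ and 0 to 475 FPKM (median 70.2) in Msgn1- cells. Among listed genes, Cdkn1a (p21), a cell cycle inhibitor induced by p53, came nearest to this size after Cdc45, at 7.53 to 233 FPKM (median 68.3) in Msgn1+ and 0 to 176 FPKM (median 25.6) in Msgn1- cells. Its difference was 1.72, and 1.46 for the 7 cells with 12 or more fragments. Cdkn1a was detected in 15 of 15 Msgn1+ and 31 of 38 Msgn1- cells. The 10 p53 and apoptosis genes together had a median of 0.18, with 6 above 0 and 4 below, and 2 higher and 0 lower by at least 1. After Cdkn1a came Bbc3 at 1.06, detected in 8 of 15 and 10 of 38 cells, and Bax at 0.92. For the 7 cells with 12 or more fragments Bbc3 was at 1.17 and Bax at 2.25. The lowest of the 10 was Phlda3 at -0.60, and at -1.27 for those 7 cells, of which 0 had it detected. Mdm2 was at -0.55. Of the 2 members below the filter, Sesn2 was detected in 0 of 15 and 8 of 38 cells and Eda2r in 2 of 15 and 6 of 38.

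Which genes had a difference of at least 2 depended on the boundary where it was made stricter. With any Msgn1 above 0 counted as Msgn1+, 11 genes were higher and 9 lower, and these included 7 of the 8 and 6 of the 6 counted above. With Msgn1+ cells counted only from 5 FPKM on, 48 genes were higher and 33 lower by at least 2, and these included 0 of the 8 and 2 of the 6. With 2 or more Msgn1 fragments against 0, a grouping added after seeing the data that compares 11 with 37 cells, 35 genes were higher and 15 lower, with 1 of the 8 and 2 of the 6 among them. Leaving out the 6 cells of capture sites 90 and above gave 8 higher and 10 lower genes, of which 1 and 4 were among the 14. Leaving out the 5 cells with the fewest genes gave 10 higher and 9 lower, of which 2 and 5 were. The most extreme presomitic genes were -1.53 (Pdgfra) and 0.75 (Tcf15) from 5 FPKM on, and -1.03 (Pdgfra) and 1.09 (Tcf15) with 2 or more fragments, and no member reached 2. Of all genes compared, 7.39% were higher and 7.06% lower by at least 1 from 5 FPKM on, and 6.35% and 6.28% with 2 or more fragments.

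Rank correlation with Msgn1 over all 53 cells, given the number of genes detected, gave the same kind of picture. The 10 highest partial Spearman coefficients lay between 0.42 and 0.49, led by Hps3 (0.49), a subunit of a complex of lysosome-related organelles, Tubb3 (0.47), a neuronal beta tubulin, and Harbi1 (0.47). Tubb3 was detected in 11 of 15 Msgn1+ cells at up to 25.9 FPKM and in 8 of 38 Msgn1- cells at up to 31 FPKM. The lowest were Cd300a (-0.50) and Mga (-0.44), a factor with a T-box domain that was at 0.677 to 23.9 FPKM (median 7.89) in Msgn1+ and 3.61 to 55.4 FPKM (median 17.4) in Msgn1- cells. The coefficient was -0.13 for Tbx6, -0.23 for T, 0.11 for Sox2, -0.17 for Dll1 and 0.03 for Hes7. All cells share a chip, a pool of embryos and a protocol, 37 of them are tied at 0, and coefficients this small over sparse values are descriptions.

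Whole profiles of cells were about as alike within the classes as between them. Over the 9061 genes, the median Pearson correlation of log2(FPKM + 1) was 0.553 for the 105 pairs of Msgn1+ cells, 0.527 for the 703 pairs of Msgn1- cells and 0.538 for the 570 pairs with 1 of each. Over the 24 presomitic and paraxial genes the medians were 0.791, 0.807 and 0.802 for the same kinds of pair.

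The bulk libraries, which the Msgn1 boundary did not use, show how the same genes behave between fractions. Msgn1 itself was at 76.5 FPKM in the T+ fraction and 19.3 FPKM in the Sox2+ fraction, at 1.18 FPKM in T KO and 42.5 FPKM in WT T+ cells of TS13, and at 61.3 FPKM in Tbx6 KO and 154 FPKM in WT cells by title. In bulk RNA, fewer cells with a gene and less of its RNA per cell cannot be told apart. The 15 presomitic genes compared in the cells had a median difference of 1.77 (log2) for T+ against Sox2+, with 11 higher and 0 lower by at least 1. Of the 7980 genes compared in the cells that reached 5 FPKM in 1 library of the pair, 2.31% were higher and 2.57% lower. The counts of list members had no such floor. Medians of the 15 were -1.88 for T KO against WT at TS13, with 0 higher and 12 lower (0.79% and 1.23% of genes above the floor). For Tbx6 KO against WT by title the median was -1.20, with 0 higher and 9 lower (1.85% and 1.25%). The same 15 genes had a median of -0.25 between Msgn1+ and Msgn1- cells. Dll1, for example, was at 95.1 FPKM in T+ and 27 FPKM in Sox2+ cells, and Pcdh19 at 33.8 FPKM in T+ and 2.14 FPKM in Sox2+ cells.

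**Figure D5:**
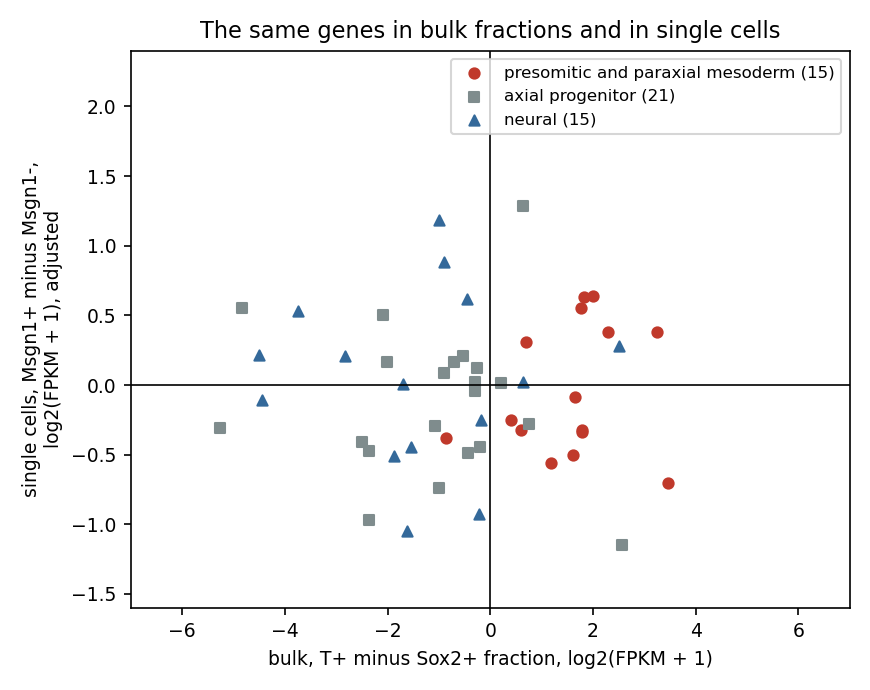
Adjusted difference between Msgn1+ and Msgn1- cells (vertical) against the difference between the T+ and Sox2+ bulk fractions (horizontal), both of log2(FPKM + 1), 1 point per gene. Presomitic genes are red circles, axial progenitor genes grey squares and neural genes blue triangles. The presomitic genes lie mostly to the right (11 of 15 at 1 or more) and all between -0.70 and 0.64 on the vertical axis.

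The 15 neural genes ran the other way in bulk, with a median of -1.54 for T+ against Sox2+, 1 higher and 8 lower, and had a median of 0.02 in the cells. Of the genes with the highest and the lowest difference in the cells, Med10 was at 29.2 FPKM in T+ and 29 FPKM in Sox2+ cells, and Bloc1s1 at 29.8 FPKM in T+ and 30.9 FPKM in Sox2+ cells. The bulk and cell tables were taken as normalised separately and come from different kits, and the fractions are of TS12 and the cells of TS13, so levels are set side by side and not compared. On those terms Msgn1 averaged 11.6 FPKM over the 53 cells, and the T+ Sox2+ bulk fraction of TS12 had 112 FPKM.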

How the data were processed

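All values are FPKM as deposited by the authors, 1 per gene symbol and library. Per the submitters' processing notes the tools for the cells were TopHat2 2.1.0, Bowtie, Cufflinks 2.2.1 and Cuffnorm on build mm10; the annotation and the scaling between cells are not stated there, and FPKM are no counts, so no count model was used. Numbered gene models, small RNAs, mitochondrial genes, ribosomal protein pseudogenes and joined symbols were left out, which kept 21328 of 23983 symbols. Python 3.11.15 with numpy 2.4.6, pandas 2.3.3 and scipy 1.17.1 fitted log2(FPKM + 1) on class and genes detected by least squares, for genes at 1 FPKM or more in at least 10 cells, a fit tested on simulated data. Bulk differences were counted at 1 (log2) or more, over all genes where 1 library of the pair reached 5 FPKM and over list members without that floor. No doublet caller was run, since wells were inspected by eye per the labels' protocols. No 2 cells held identical values (highest correlation 0.866). Relative depth was derived from ratios of values below 3 FPKM, a step added after seeing the data.

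The classes and the 24 gene lists were chosen with earlier results of these data known. Genes were named by rule: Msgn1, T, Sox2, Tbx6, Sox3 and Nkx1-2, members of 6 main lists with a difference of at least 1, up to 4 of each other list, the 15 highest and 15 lowest among all genes, and the 10 highest and 5 lowest partial correlations. One gene that the rule names is not reported here. Other list members were chosen after their values were seen. Promoters were matched by symbol (3 of 3, the window of Tbx6 not shown). The chromatin samples were not analysed here.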

Additional observations from a re-analysis of the deposited data

How the results depend on the processing

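The counts of 8 higher and 6 lower genes depended on most settings tried. The median of 16 of 23 gene lists changed sign under at least 1 setting. With Msgn1+ from 5 FPKM on, the medians were -0.22 for notochord and node (0.90 as reported), -0.19 for endothelium and blood (0.40), -0.10 for FGF targets (0.30) and -0.16 for epithelial junction genes (0.13). With a pseudocount of 0.1 there were 178 higher and 133 lower genes, and with 5 there were 0 and 0. Without adjustment for genes detected there were 15 and 3. Within the shared range of gene numbers 14 were higher. Msgn1+ from 5 FPKM on gave 48 and 33, and 10 FPKM or more against below 1 gave 66 and 63. Without capture sites 90 and above 10 were lower. With 2 or more Msgn1 fragments against 0, chosen after seeing the data, there were 35 and 15. At a difference of at least 1 there were 426 and 410, and at 3 there were 0 and 0. Leaving out 1 cell at a time gave 5 to 16 higher and 4 to 14 lower genes. The cause was not tested. Of 1863 values for named genes, 1859 moved by less than 1 SD over cells, which is wide, 3 by more (Tubb3, Zfp709 and Zxdb at a pseudocount of 0.1) and Tm2d2 turned to -0.095 with Msgn1+ from 5 FPKM on. Over all settings the presomitic median ran from -0.32 to 0.10. Depth also limits the classes: 8 of the 15 Msgn1+ cells rest on 1 to 5 fragments, and a count of 0 allows up to 3. No paired analysis was possible because all cells belong to 1 labelled group and their numbers name capture sites, not pairs.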
